A study of Brassica rapa subsp. pekinensis with 6 samples.

Results

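The genes described here are 10 identifiers of Chinese cabbage (Brassica rapa subsp. pekinensis) that stand for enzymes of flavonoid and anthocyanin synthesis. They were chosen by identifier, out of 43354 listed in the count table, from a list that names 3 copies of chalcone synthase (CHS), 1 each of chalcone isomerase (CHI), flavanone 3-hydroxylase (F3H), flavonoid 3'-hydroxylase (F3'H), flavonol synthase (FLS) and dihydroflavonol 4-reductase (DFR), and 2 copies of anthocyanidin synthase (ANS). The deposited tables hold identifiers without names, so each enzyme name is the one under which its identifier was listed and could not be checked against the data. RNA was sequenced from whole flower buds of the male sterile line AB01, whose sterility is inherited through multiple alleles, with 3 libraries from fertile and 3 from sterile plants, each of 27637426 to 35564895 counts. Both groups were grown in the greenhouse from seed sown after vernalization, and neither age nor bud stage is given in the sources used here. In whole buds, fewer cells of a type and less RNA per cell cannot be told apart.

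Flavonoids are made from a phenylpropanoid precursor and malonyl units. CHS joins them into a chalcone, CHI closes the ring to a flavanone, and F3H adds the hydroxyl group that turns it into a dihydroflavonol, while F3'H adds a further hydroxyl group to the side ring. At the dihydroflavonol the pathway divides: FLS leads to flavonols, and DFR followed by ANS leads to the anthocyanidins that colour plant tissue. In Arabidopsis flowers, flavonols are known as products of the tapetum, the anther layer that feeds developing pollen, and end up in the pollen coat.

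In flower buds of both groups, the listed copies for the steps up to the dihydroflavonol and for the flavonol step had abundant transcripts. The listed DFR and ANS copies had almost none. Whether other identifiers stand for the same enzymes was not examined. In RPKM (read counts scaled to gene length and to the library's total, as deposited by the authors), the 7 copies of CHS, CHI, F3H, F3'H and FLS had group means between 63.7 and 326.3. The 3 copies of DFR and ANS had group means between 0.158 and 1.01. The RPKM ranges of these sets did not overlap in either group of buds.

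**Figure D1:**
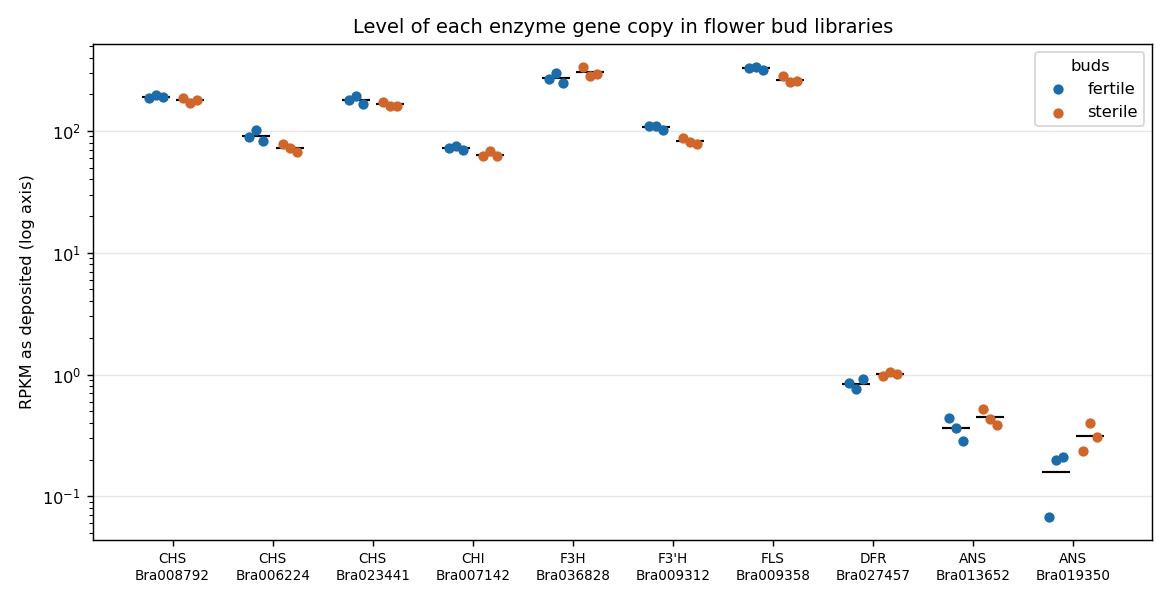
RPKM of each enzyme gene copy, on a log axis, in 3 fertile and 3 sterile libraries, with a bar at each group mean. The copies of CHS, CHI, F3H, F3'H and FLS sit between 61.7 and 337.6, and those of DFR and ANS between 0.0674 and 1.04.

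FLS (Bra009358, coding length 1011 nt) had the highest level of the 10 in fertile buds. Its RPKM was 328.0, 337.6 and 313.4 in fertile libraries 1 to 3 and 281.3, 252.7 and 257.2 in sterile libraries 1 to 3. Every sterile library was below every fertile one. In fertile buds 1.07% of all genes had a higher mean RPKM, and in sterile buds 1.58% did.

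DFR (Bra027457, 1158 nt), which competes with FLS for dihydroflavonols, was counted with 27, 25 and 38 reads in fertile libraries and 36, 39 and 39 in sterile libraries. This is an RPKM of 0.844, 0.764 and 0.923 in fertile and 0.975, 1.04 and 1.002 in sterile buds. On this scale the sterile libraries all stood above the fertile ones. The summed counts correspond to 0.984 CPM (counts relative to the library total, not scaled to length; exact 95% Poisson interval 0.791 to 1.21) in fertile and 1.17 CPM (0.961 to 1.40) in sterile buds, so the intervals overlapped. These intervals cover counting error only.

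The ANS copies were lower still. Bra013652 (1077 nt) had 13, 11 and 11 reads in fertile and 18, 15 and 14 in sterile libraries. Bra019350 (1074 nt) had 2, 6 and 8 reads in fertile and 8, 14 and 11 in sterile libraries. Fertile and sterile counts overlapped for Bra019350, and its RPKM did not, at 0.0674, 0.198 and 0.209 in fertile and 0.234, 0.403 and 0.305 in sterile libraries. Bra013652 held 69.7% ± 15.1 of the summed ANS RPKM in fertile and 58.9% ± 9.13 in sterile buds (SD, n = 3 each), with overlapping groups (exact two-sided permutation p = 0.4, adjusted 0.4). The difference of -10.8 percentage points rests on few reads: it was -2.32 without fertile replicate 1, -16.7 without fertile replicate 3, -15.9 without sterile replicate 1 and -7.15 without sterile replicate 2. In fertile buds 75.4% of genes had a higher mean RPKM than Bra013652 and 80.1% a higher one than Bra019350; in sterile buds these shares were 70.3% and 72.5%.

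Set against each other within a library, where scaling between libraries plays no part, FLS exceeded DFR in RPKM by 389, 442 and 339.6 times in fertile libraries and by 289, 242 and 257 times in sterile libraries. The log2 ratio of DFR to FLS was -8.60 ± 0.190 in fertile and -8.03 ± 0.128 in sterile buds (SD, n = 3 each), a difference of 0.57 with no overlap between groups. The exact two-sided permutation p was 0.1, the smallest that 3 against 3 libraries can give, and 0.2 after Benjamini-Hochberg adjustment over the 6 shares and ratios tested. This difference was 0.43 with 1 RPKM added. With a library left out it ran from 0.47 (without fertile replicate 2) to 0.66 (without fertile replicate 3). The counting error of DFR was 18.4% in fertile and 16.2% in sterile buds. The log2 ratio of the summed ANS copies to DFR was -0.70 ± 0.225 in fertile and -0.41 ± 0.113 in sterile buds, with overlapping groups (exact permutation p = 0.2, adjusted 0.3), and the difference of 0.29 was 0.19 without fertile replicate 3. The 3 CHS copies together stood above the 2 ANS copies by 880.2 to 898 times in fertile and by 484 to 590.4 times in sterile libraries.

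Between fertile and sterile buds the abundant copies differed little in size and mostly in one direction. Libraries were scaled with TMM factors (a trimmed mean of log ratios between libraries) and compared with edgeR's quasi-likelihood test, with p adjusted over all 33150 genes tested. Of the 10 copies, 9 passed the filter on low counts. The ANS copy Bra019350 did not. An adjusted p of 0.05 was passed by 6 copies, and all 6 were lower in sterile buds: the 3 CHS copies, CHI, F3'H and FLS. Among all genes tested, 33.3% were called lower and 62.5% were called in either direction. The same 6 copies had TMM-scaled CPM without overlap between groups, lower in sterile buds, as did 35% of all genes tested. None of the 9 copies tested was called at 2-fold or more, as 21.1% of all genes tested were. The median log2 fold change was -0.43 over the 9 copies tested and 0.00 over all genes tested. Without the filter it was -0.41 over all 10 copies and 0.00 over all genes. Changes as large as the largest of these copies, or larger, were found for 27.9% of genes tested.

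**Figure D2:**
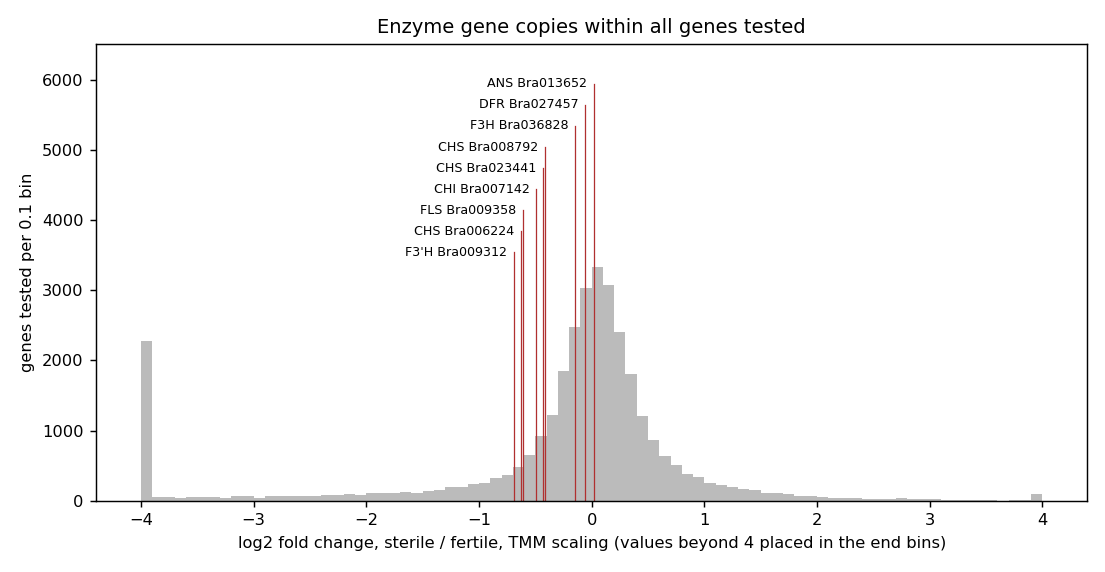
Number of genes tested (vertical axis) by log2 fold change of sterile over fertile buds with TMM scaling (horizontal axis, bins of 0.1), with a red line for each of the 9 enzyme copies tested. The copies lie between -0.69 and 0.02, with 18.0% of genes tested below the lowest copy and 52.0% below the highest.

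The sizes, and for F3H and DFR the signs of the estimates, depend on how libraries are scaled. Neither F3H nor DFR passed the threshold under TMM, upper-quartile or library-size scaling. With library size alone, the scaling that RPKM also uses, the shift of the median over all genes was 0.31 (log2), and with upper-quartile factors it was 0.19. Relative to that median each of the 9 copies kept its place, since scaling moves all genes together. On the library-size scale the fall of FLS was 0.31 on the log2 scale, that of F3'H 0.39, that of the CHS copy Bra006224 0.32 and that of CHI 0.18, each still past the threshold. There, 20.7% of all genes were called lower and 59.2% higher. In the deposited RPKM itself, 5 copies were lower in sterile buds without overlap, where 20.3% of genes with an RPKM of at least 1 in 3 libraries were.

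**Figure D3:**
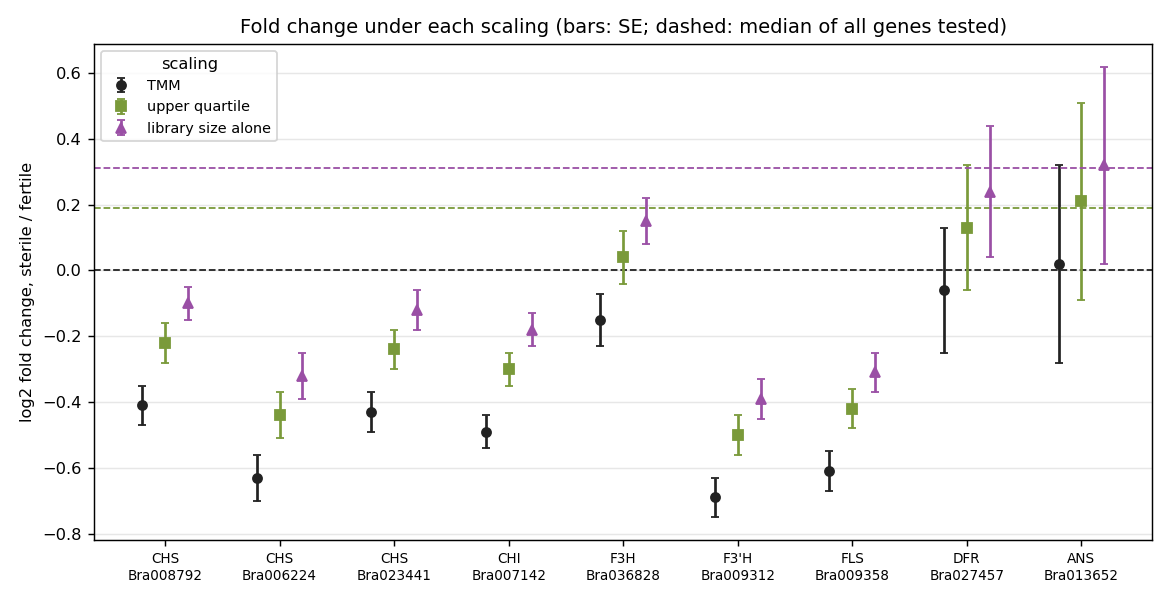
log2 fold change of sterile over fertile buds (vertical axis) with its SE for 9 enzyme copies under TMM, upper-quartile and library-size scaling; dashed lines are the medians of all genes tested, at 0.00, 0.19 and 0.31. FLS, F3'H, CHI and the CHS copies are below 0 in all 3, while F3H and DFR move from below 0 with TMM to above 0 with the other scalings.

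Among the CHS copies, which carry out the first committed step, Bra008792 (1188 nt) and Bra023441 (1185 nt) were the more abundant. The RPKM of Bra008792 was 186, 198 and 191 in fertile and 185, 170.4 and 179 in sterile libraries. That of Bra023441 was 178, 194 and 166 in fertile and 172, 161 and 161 in sterile libraries. On this scale the groups of Bra008792 were separated by a narrow gap and those of Bra023441 overlapped. In TMM-scaled CPM, both were lower in all sterile libraries, and on the log2 scale the change was -0.41 ± 0.06 (SE, edgeR adjusted p = 5.0e-06) for Bra008792 and -0.43 ± 0.06 (SE, edgeR adjusted p = 7.6e-06) for Bra023441. With library size alone neither passed the threshold (-0.10, edgeR adjusted p = 0.089, and -0.12, edgeR adjusted p = 0.068).

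The third CHS copy, Bra006224 (1191 nt), was the least abundant, at an RPKM of 88.6, 101 and 83.4 in fertile and 78.3, 72.1 and 67.7 in sterile libraries. All sterile libraries were below all fertile ones. Its log2 fold change was -0.63 ± 0.07 (SE, edgeR adjusted p = 1.8e-07), a level 1.55-fold lower in sterile buds. It supplied 19.6%, 20.5% and 18.9% of the summed CHS RPKM in fertile libraries and 17.96%, 17.9% and 16.6% in sterile libraries. The difference of sterile minus fertile share was -2.19 percentage points, without overlap between groups (exact two-sided permutation p = 0.1, adjusted 0.2). The share of Bra023441 was 38.8% ± 0.925 in fertile and 39.7% ± 0.231 in sterile buds (SD, n = 3 each; exact permutation p = 0.1, adjusted 0.2), and that of Bra008792 was 41.5% ± 1.62 and 42.9% ± 0.903 (exact permutation p = 0.3, adjusted 0.36). The differences for Bra023441 and Bra008792 depended on single libraries. That of Bra023441, 0.817 percentage points, was 0.283 without fertile replicate 3. That of Bra008792, 1.38 points, was 0.719 without fertile replicate 2, 0.861 without sterile replicate 3 and 2.28 without fertile replicate 3. With a library left out, the difference for Bra006224 stayed between -2.56 (without fertile replicate 3) and -1.75 points (without sterile replicate 3). The sources used here do not say how reads common to several copies were counted, so the division among CHS copies, and among ANS copies, is less certain than their sums. The summed CHS RPKM was 453, 492 and 440.7 in fertile and 436, 404 and 408 in sterile libraries.

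CHI (Bra007142, 756 nt) was the lowest of the abundant copies. Its RPKM was 72.8, 75.2 and 69.1 in fertile and 61.8, 67.7 and 61.7 in sterile libraries, again without overlap. The log2 fold change was -0.49 ± 0.05 (SE, edgeR adjusted p = 1.1e-07). Its log2 ratio to the summed CHS copies was -2.67 ± 0.0374 in fertile and -2.71 ± 0.124 in sterile buds (SD, n = 3 each), and the groups overlapped; this ratio was not tested.

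F3H (Bra036828, 1077 nt) was the abundant copy that did not pass the test. Its RPKM was 269, 299 and 249.6 in fertile and 336, 281 and 292 in sterile libraries, so the groups overlapped. With TMM the value was -0.15 ± 0.08 on the log2 scale (SE, edgeR adjusted p = 0.086; 95% interval -0.31 to 0.01), which did not pass the threshold. Single libraries moved it both ways: without fertile replicate 3 it was -0.21 (edgeR adjusted p = 0.027) and without sterile replicate 1 it was -0.23 (edgeR adjusted p = 0.011), both past the threshold, while without fertile replicate 2 it was -0.08 (edgeR adjusted p = 0.42) and without sterile replicate 2 it was -0.09 (edgeR adjusted p = 0.31). With library size alone the value was 0.15 (edgeR adjusted p = 0.056).

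F3'H (Bra009312, 1536 nt) had the largest fall of the 10 copies with TMM scaling. Its RPKM was 109.8, 110.3 and 102 in fertile and 87.8, 80.6 and 77.9 in sterile libraries, with a clear gap between groups. The log2 fold change was -0.69 ± 0.06 (SE, edgeR adjusted p = 4.1e-09), a level 1.62-fold lower in sterile buds. Of all genes tested, 18.0% had a lower log2 fold change.

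For FLS, whose libraries are given above, the log2 fold change was -0.61 ± 0.06 (SE, edgeR adjusted p = 3.6e-08), a level 1.53-fold lower in sterile buds. The order of FLS and F3H changed between the groups. In fertile libraries F3H had 0.819, 0.886 and 0.796 times the RPKM of FLS, and in sterile libraries 1.19, 1.11 and 1.13 times. FLS was thus above F3H in 3 of 3 fertile libraries and below it in 3 of 3 sterile libraries, although in sterile buds the RPKM ranges of the pair overlapped. This ratio was chosen after its values were seen and was not tested. Against the summed CHS copies, the mean log2 ratio for F3H was -0.76 in fertile and -0.46 in sterile buds. It was -2.11 and -2.34 for F3'H, and -0.50 and -0.66 for FLS. None of these overlapped between groups, and none was tested. How often ratios of other genes separate the groups, as these and DFR over FLS did, was not counted.

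**Figure D4:**
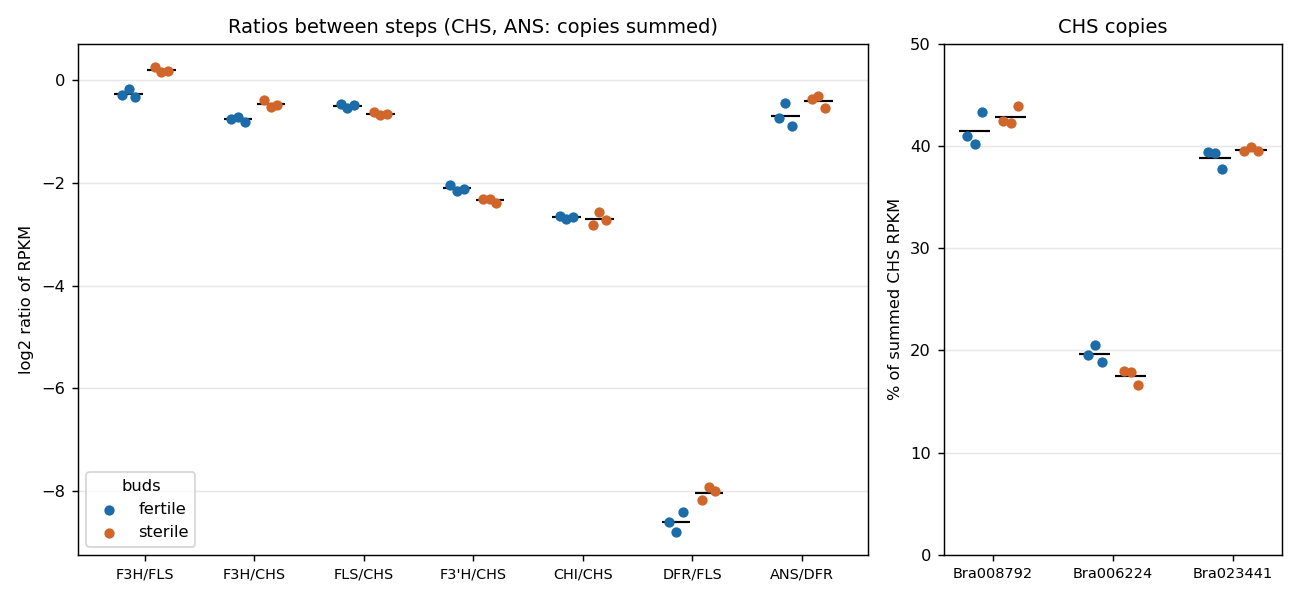
Left, log2 ratios of RPKM between pathway steps within each library (vertical axis), with CHS and ANS copies summed; right, percentage of the summed CHS RPKM held by each CHS copy. Points are libraries and bars are group means; F3H over FLS lies between -0.33 and -0.17 in fertile and between 0.15 and 0.25 in sterile libraries, and DFR over FLS lies between -8.79 and -8.41 in fertile and between -8.17 and -7.92 in sterile libraries.

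For the listed DFR and ANS copies no difference was detectable at this depth with TMM scaling. On the log2 scale the change of DFR was -0.06 ± 0.19 (SE, edgeR adjusted p = 0.80; 95% interval -0.47 to 0.35), and that of ANS Bra013652 was 0.02 ± 0.30 (SE, edgeR adjusted p = 0.96; 95% interval -0.60 to 0.65). Bra019350, tested without the filter, had 0.64 ± 0.46 (SE, edgeR adjusted p = 0.25; 95% interval -0.30 to 1.59). With a library left out it passed the filter in 4 of 6 cases, at 0.31 without fertile replicate 1 and up to 0.92 without fertile replicate 3. Without TMM factors the picture was one of higher RPKM in sterile buds: the summed DFR and ANS RPKM was 1.35, 1.32 and 1.42 in fertile and 1.73, 1.88 and 1.69 in sterile libraries. On the RPKM scale the sterile libraries were above the fertile ones for DFR and Bra019350. The same held for 61.7% of genes with an RPKM of at least 1 in 3 libraries. Neither of these copies met that filter, though DFR passed 1 in sterile replicates 2 and 3.

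Ordered by RPKM, the fertile libraries ran FLS, F3H, CHS Bra008792, CHS Bra023441, F3'H, CHS Bra006224, CHI, DFR, ANS Bra013652 and ANS Bra019350. Each was above the next in all 3 libraries, and the ranges overlapped between Bra008792 and Bra023441 alone. In sterile buds F3H came first and FLS second, with the rest in the same order. There the ranges overlapped between F3H and FLS, between Bra008792 and Bra023441, between F3'H and Bra006224, between Bra006224 and CHI, and between the ANS copies.

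For the 7 copies of CHS, CHI, F3H, F3'H and FLS, replicates differed from each other by more than counting error. In TMM-scaled CPM, fertile replicate 2 was the highest fertile library for 7 of 7 and fertile replicate 3 the lowest for 6. Sterile replicate 1 was the highest sterile library for 6 of 7 and the lowest for CHI, while sterile replicate 2 was the lowest for 4 and sterile replicate 3 for 2. How often this order holds over all genes was not counted. The coefficient of variation of RPKM among replicates was 3.21% to 9.87% in fertile and 3.92% to 9.53% in sterile buds, against 1.01% to 2.47% and 0.971% to 2.52% from counting alone, so the spread exceeded counting error for each of the 7. For DFR the spread of 9.40% and 3.38% was below the counting error of 18.4% and 16.2%. For ANS Bra013652 the spread of 20.7% and 15.7% was also below it, at 29.4% and 25.3%. ANS Bra019350 had 49.9% against 43.6% in fertile and 27.2% against 30.2% in sterile buds. Together the 10 copies took 0.132% to 0.148% of the counts of fertile libraries and 0.122% to 0.135% of those of sterile libraries.

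Genes outside the list were compared by the root mean square difference of log2 (TMM-scaled CPM + 1) over the 6 libraries, which measures likeness in level and change together. The closest genes were picked by these same values, so their fold changes and adjusted p largely follow from the matching. The gene closest to F3'H was Bra035746, with a difference of 0.064. Its CPM was 177 ± 2.40 in fertile buds and 111 ± 1.81 in sterile buds (SD, n = 3 each), and its log2 fold change was -0.67 (edgeR adjusted p = 8.1e-10). The gene closest to the CHS copy Bra006224 was Bra026408, with a difference of 0.070. It stood at 117 ± 7.83 and 80.8 ± 4.47 CPM (SD, n = 3 each), and its log2 fold change was -0.54 (edgeR adjusted p = 2.2e-07). The genes closest to DFR and to ANS Bra013652 were Bra031833 and Bra032418, at 1.13 and 0.436 CPM in fertile and 0.983 and 0.424 CPM in sterile buds, neither past the threshold (edgeR adjusted p = 0.40 and 0.98). With so many genes tested, some lie close to any profile by level alone, and the tables give no names for these.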

How the data were processed

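Both tables were deposited by the authors and cover the whole series. One holds raw read counts per gene and the other RPKM, per the file headers. The RPKM values equal the counts divided by model length and library total, from which coding lengths were computed. The submitters' processing notes list TopHat2 2.0.9 and Bowtie2 2.0.6 without saying what each did; the counter, the strand setting, the annotation and the build were not stated in any source used here. A RefSeq gene table matched 0 of the 10 identifiers, so no sequence, position or marker gene was used, and the labelled tissue was not checked against markers.

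Groups follow the genotype label. Library totals ran from 27637426 to 35564895 counts. Counts were tested in R 4.3.3 with edgeR 4.0.16 (filterByExpr, TMM, quasi-likelihood test, Benjamini-Hochberg over all genes tested, threshold 0.05, no term for replicate number). The SE was approximated from the log2 fold change and the F statistic. Alternatives were DESeq2 1.42.0, other scalings and filters, and limma 3.58.1 on log2(RPKM + 1) keeping genes whose RPKM reached 1 in 3 libraries; a pseudocount understates changes of low genes. Shares and ratios used exact permutation tests. The series describes the replicates as biological.

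All 10 copies are named, and for the 2 with the highest and the 2 with the lowest log2 fold change among the 9 tested, the gene of closest profile. The members, lists and tests were chosen with earlier results of these data known.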

Additional observations from a re-analysis of the deposited data

How the results depend on the processing

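Leaving out each library in turn kept the direction and call of CHS, CHI, F3'H and FLS, with log2 fold changes of -0.74 to -0.66 for F3'H and -0.66 to -0.57 for FLS; the calls of F3'H, FLS, CHI and CHS Bra006224 held in all 16 alternatives run. The CHS copies Bra008792 and Bra023441 lost their call with library size alone and with limma on RPKM (-0.10 and -0.12 in each). F3H turned to 0.15 with library size alone and in the 3 limma fits, and to 0.04 with upper-quartile factors. DFR turned to 0.24 with library size alone, 0.13 with upper-quartile factors, 0.12 with limma on log2(RPKM + 1) without a filter and 0.02 without fertile replicate 3. ANS Bra013652 ranged from -0.14 to 0.17 over the libraries left out and turned to -0.14 without fertile replicate 3 and -0.11 without sterile replicate 1. ANS Bra019350 was called higher in limma on log2(RPKM + 1) without a filter alone (0.18, limma adjusted p = 0.042; range over its alternatives 0.042 to 0.57), which made 1 copy called higher in place of 0. Over all genes, 9685 were called higher in the main fit, 19610 with library size alone and 16076 with upper-quartile factors. With limma, 18439 and 18298 were called higher at pseudocounts of 1 and 0.1, and 19786 at 1 without a filter. Called lower were 11027 in the main fit, 6854 with library size alone and 7988 with upper-quartile factors. With limma, 6009 and 5975 were called lower at pseudocounts of 1 and 0.1, and 7620 at 1 without a filter. The limma fits changed test, filter and scaling together, and the cause of their shift was not tested apart. Adding 1 RPKM moved the difference in log2 ANS to DFR ratio from 0.29 to 0.01 and that in the ANS share of Bra013652 from -10.8 to -1.62 percentage points. A replicate block gave 9956 genes higher and 11254 lower and changed no call of the 9 copies tested. Same-numbered libraries had correlations of deviations of 0.05, -0.10 and 0.20. Some libraries were closer to another number than to their own, so libraries were not paired. Depth limits DFR and ANS, with at most 39 reads a library. The ratios of F3H, F3'H, CHI and FLS to the CHS copies, and that of F3H to FLS, were added after seeing the data. The CHS to ANS ratio and the summed DFR and ANS RPKM were not tested.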
